A study of Sus scrofa with 9 samples.

Results

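The genes of 7 secreted defence proteins of glands were followed across pig esophagus and cultures grown from its glands: lactoperoxidase (LPO), DMBT1, BPIFA1, BPIFB1, lysozyme (LYZ), SLPI and WFDC2. They were taken as the probe sets whose only annotated symbol was one of these names. All 7 genes had such a probe set, out of 12217 genes that could be tested, and 9 of the 27558 probe sets of the array belonged to them. BPIFB1 and SLPI had 2 probe sets each, and those of SLPI held the same values on every array. A further probe set was annotated to DMBT1 together with an unnamed neighbouring gene, was left out for that reason, and lay between 4.81 and 5.23 on all 9 arrays.

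Serous cells of airway, salivary and other mucosal glands release a watery fluid that carries enzymes and binding proteins against microbes. Lactoperoxidase uses hydrogen peroxide to turn thiocyanate into an antibacterial oxidant, lysozyme cuts the peptidoglycan of bacterial walls, and DMBT1 is a large scavenger-receptor protein that clumps bacteria. BPIFA1 and BPIFB1 belong to a family related to bactericidal/permeability-increasing protein and are known from airway secretions. SLPI and WFDC2 contain whey acidic protein domains, and SLPI inhibits the elastase of neutrophils. Lysozyme is also made by macrophages and neutrophils, and SLPI and WFDC2 by many lining epithelia.

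Each of the 9 total RNA samples was run on its own PorGene 1.0 ST array, with 3 arrays per group. The groups were spheroids grown in vitro from esophageal submucosal glands (ESMG) and labelled pig 1, 2 and 3, ESMG tissue of control pigs 37, 39 and 40, and the overlying squamous tissue of the same pigs 37, 39 and 40. Spheroids grew in growth factor reduced Matrigel, with a medium of Advanced DMEM/F12, B27, N2, 10 mM HEPES and 50 ng/ml recombinant human EGF, so they differed from the tissues in medium and growth factor as well as in origin. The sources used here do not give breed, age or sex, or how the spheroid pigs relate to the tissue pigs. Levels are on the log2 scale after RMA, where 1 unit means 2-fold, and a level of 1 probe set cannot be set against that of another. A gene was called when limma gave a Benjamini-Hochberg adjusted p under 0.05 over all 12217 genes and the groups differed at least 2-fold. The number of arrays limits the precision.

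The labelled tissues were checked on marker genes. All 10 measured gland markers were called higher in ESMG than in squamous tissue, and their mean level was 9.82 to 10.00 in spheroids, 9.93 to 10.62 in ESMG and 7.54 to 8.03 in squamous tissue. In spheroids they did not all go the same way. Against ESMG 1 was called higher, KRT19 (1.87), and 2 lower, KIT (-2.95) and AQP5 (-2.40). Against squamous tissue 7 were called higher and 1 lower, KIT (-1.80). AQP5 averaged 7.97 in spheroids, 10.37 in ESMG and 8.07 in squamous tissue. The 7 measured squamous markers averaged 8.56 to 8.75 in spheroids, 10.22 to 10.83 in ESMG and 10.96 to 11.18 in squamous tissue, and none was called between ESMG and squamous tissue. KRT8, a keratin of simple epithelium, averaged 11.47 in spheroids, 11.20 in ESMG and 8.34 in squamous tissue. CRNN, which marks maturing squamous cells, averaged 8.23 in spheroids, 12.27 in ESMG and 12.69 in squamous tissue, and KRT5, a basal keratin, 13.75, 12.85 and 13.29 in the same order. The ESMG samples thus carried transcripts of squamous epithelium at levels close to those of squamous tissue.

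On these 7 genes 2 arrays stood apart. In the squamous array of pig 37, 9 of 12217 genes lay at least 2 log2 units above both other squamous arrays. LYZ (by 4.59) and BPIFA1 (by 3.45) led them, followed by JCHAIN, CLCA1, NR4A3, UBAP1, CSN3, AGR2 and TSPAN1, which are named because they exceeded that limit. With a limit of 1 unit, 51 genes (0.417%) lay above both others, and WFDC2 joined LYZ and BPIFA1 among them. In the ESMG array of pig 40, 92 genes (0.753%) lay at least 1 unit below both other ESMG arrays, DMBT1 and LYZ among them, and its gland markers had the lowest ESMG mean, 9.93. On none of the other 7 arrays did any of the 7 genes lie 1 unit beyond both others of its group. The squamous array of pig 37 also had the highest gland-marker mean of its group, 8.03 against 7.54 and 7.55. The labels do not record how cleanly gland and squamous tissue were separated, and the part of mixed tissue in these values was not tested. Results that rest on these arrays are given with and without them where a call or a fold moved. Both arrays were singled out on the levels of these same genes, so calls gained without them are description only.

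In ESMG against squamous tissue, 4 of the 7 genes were called higher (WFDC2, DMBT1, SLPI and LPO) and none lower, where 2.65% of all genes were called higher and 0.409% lower. Called in either direction were 3.06% of all genes. The same 4 had arrays that did not overlap, against 9.88% of all genes apart in that direction and 11.7% apart in the other. In spheroids against ESMG, LPO and DMBT1 were called lower and none higher, where 8.91% of all genes were called lower, 7.99% higher and 16.9% in either direction. There LYZ was also apart on the low side (21% of all genes) and BPIFA1 on the high side (30.3%). In spheroids against squamous tissue, WFDC2, BPIFA1 and SLPI were called higher and LPO lower, where 8.61% of all genes were called higher, 8.05% lower and 16.7% in either direction. The same 4 had arrays that did not overlap there, against 28.6% of all genes apart on the high side and 21.9% on the low side. The median log2 difference of the 7 genes was 1.79 in ESMG against squamous tissue, -0.20 in spheroids against ESMG and 0.58 in spheroids against squamous tissue, beside -0.06, 0.09 and 0.03 over all genes. The comparisons share arrays and are not independent.

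**Figure D1:**
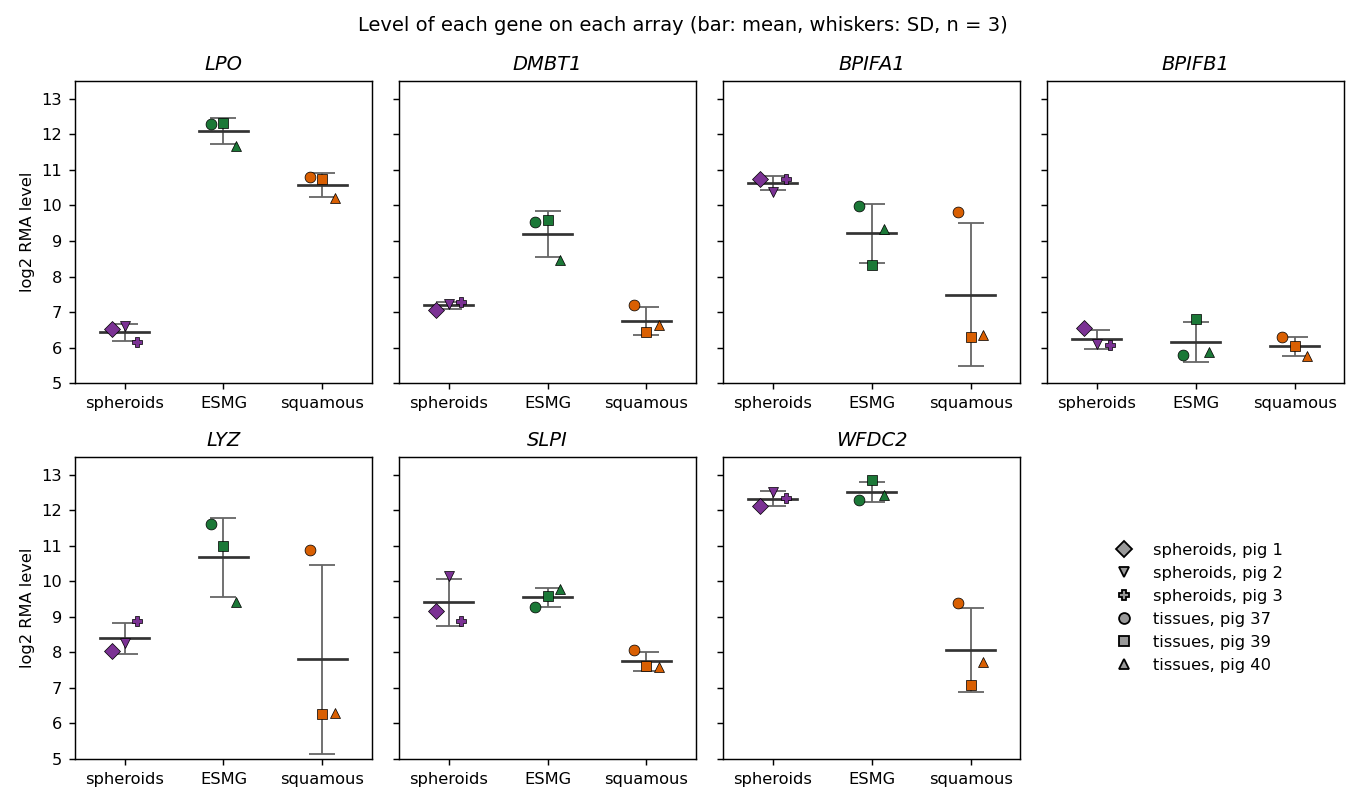
Log2 RMA level (vertical axis) of each of the 7 genes on each array of spheroids, ESMG and squamous tissue; symbols mark the pig, bars the group mean and whiskers the SD (n = 3). LPO is low on the 3 spheroid arrays only, WFDC2 and SLPI are low in squamous tissue, and the squamous array of pig 37 stands high for LYZ (10.87) and BPIFA1 (9.81).

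LPO, the peroxidase, showed the largest fall of the 7 genes in spheroids and the most uniform difference between the tissues. Its level was 6.54, 6.61 and 6.16 in spheroids, 12.30, 12.31 and 11.67 in ESMG and 10.79, 10.74 and 10.20 in squamous tissue. The 3 groups did not overlap, and squamous tissue lay between the others. Spheroids were 50.6-fold lower than ESMG (log2 difference -5.66, 95% interval -6.14 to -5.18, adjusted p = 1.82e-08) and 17.7-fold lower than squamous tissue (-4.14, -4.62 to -3.66, adjusted p = 1.19e-07). The spheroid levels were under the array medians (6.84 to 7.04) and no detection value was used, so they are not shown to be above background and the folds are those of the RMA values. ESMG was 2.87-fold higher than squamous tissue (1.52, 1.04 to 2.00, adjusted p = 0.00173). Within pigs the difference of ESMG and squamous tissue was 1.52, 1.57 and 1.47 for pigs 37, 39 and 40, so it was nearly the same in each animal. In bulk samples, fewer cells of a type and less RNA per cell cannot be told apart.

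The genes closest to LPO over the 9 arrays were CXCL12, a chemokine of stromal cells (r = 0.990), C7, a complement component (r = 0.990), and LRGUK (r = 0.990), out of 2578 candidates. These correlations describe 9 arrays that share 3 groups. CXCL12 averaged 5.73 in spheroids, 10.68 in ESMG and 9.24 in squamous tissue, the same order as LPO, whereas AGR2, a folding protein of mucous cells, averaged 11.90, 12.56 and 6.51. Fibroblast markers were set beside LPO: 9 of 10 measured were called lower in spheroids than in ESMG and than in squamous tissue, and none was called in ESMG against squamous tissue (median 0.10). Their mean level was 7.01 to 7.71 in spheroids, 11.14 to 11.46 in ESMG and 11.03 to 11.39 in squamous tissue. Such a fall was not particular to fibroblasts. In spheroids against ESMG, 7 of 9 smooth muscle, 11 of 16 myeloid and 4 of 7 squamous markers were called lower and none higher. Of 8 plasma cell markers 5 were called lower and 1 higher, and of 7 neutrophil markers none lower and 1 higher. The part of any of these cells in the LPO result was not tested.

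The partners of lactoperoxidase did not move as a block. Over all genes 3.06% were called in ESMG against squamous tissue, 16.9% in spheroids against ESMG and 16.7% in spheroids against squamous tissue. The counts of this list and of those below are to be read beside these shares, and no list was tested as a set. Of 20 measured genes of the peroxidase system, 3 were called higher and none lower in ESMG against squamous tissue, with a list median of -0.03. All 3 carry anions or iodide: SLC5A8, a sodium-coupled carrier of monocarboxylates and iodide (log2 difference 2.27), CFTR, the chloride channel that also passes thiocyanate (2.13), and SLC5A5, the sodium-iodide symporter, which also accepts thiocyanate (1.59). In spheroids against ESMG 2 were higher and 3 lower (median 0.02), and the largest changes were in the glutathione peroxidases GPX2 (1.58) and GPX3 (-1.24) and in SLC5A5 (-1.52). SLC5A5 lay at 6.02, 5.99 and 5.85 in spheroids, 7.80, 7.68 and 6.96 in ESMG and 5.89, 6.12 and 5.65 in squamous tissue, so ESMG was apart from both. CFTR went the other way in spheroids, at 8.25 ± 0.55 against 7.13 ± 0.20 in ESMG (SD, n = 3 each; 1.12, adjusted p = 0.00334). In spheroids against squamous tissue 3 were higher and 2 lower (median -0.24), led by CFTR (3.25), GPX3 (-2.14) and SLC5A8 (1.79). Of the enzymes that supply hydrogen peroxide, DUOX1 averaged 8.94 in spheroids, 9.19 in ESMG and 9.96 in squamous tissue and was called lower in spheroids than in squamous tissue (-1.01, adjusted p = 0.00118), and it is named here with its value already known.

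DMBT1, the bacteria-binding scavenger-receptor protein, was highest in ESMG. Its level was 7.07, 7.23 and 7.27 in spheroids, 9.55, 9.59 and 8.46 in ESMG and 7.20, 6.44 and 6.64 in squamous tissue. All ESMG arrays lay above all others, while spheroids and squamous tissue overlapped. It was 5.43-fold higher in ESMG than in squamous tissue (log2 difference 2.44, 95% interval 1.82 to 3.06, adjusted p = 0.000418) and 4.03-fold lower in spheroids than in ESMG (-2.01, -2.63 to -1.39, adjusted p = 0.000161). Spheroids against squamous tissue were not called (0.43, -0.19 to 1.05, adjusted p = 0.264). The squamous levels of 6.44 and 6.64 were under the array medians (6.84 to 7.04), and no detection value was used. They are not shown to be above background, and differences from squamous tissue are those of the RMA values. Without the ESMG array of pig 40 the difference was 2.81 between ESMG and squamous tissue and -2.38 between spheroids and ESMG. Another probe set was annotated to DMBT1 together with a neighbouring gene, and whether the DMBT1 probe set tells these genes apart was not tested.

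The genes most like DMBT1 were TSPAN13, a tetraspanin (r = 0.993), CASC4, a Golgi membrane protein (r = 0.989), and SMPDL3A, a secreted phosphodiesterase (r = 0.987), all with their lowest ESMG level in pig 40. TSPAN13 lay at 8.61, 8.72 and 8.92 in spheroids, 11.23, 11.13 and 9.91 in ESMG and 8.40, 7.82 and 8.29 in squamous tissue. Of 15 measured partners of DMBT1 and other scavenger-receptor proteins, none was called between ESMG and squamous tissue (median 0.04). In spheroids 1 was higher and 4 lower than in ESMG (median -0.22), and 4 were lower than in squamous tissue (median -0.13). The largest changes were in C1QB (-3.52 against ESMG, -2.56 against squamous tissue) and C1QA (-2.44 and -1.87), complement subunits made by macrophages, and in the ferritin receptor SCARA5 (-1.50 in either comparison).

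**Figure D2:**
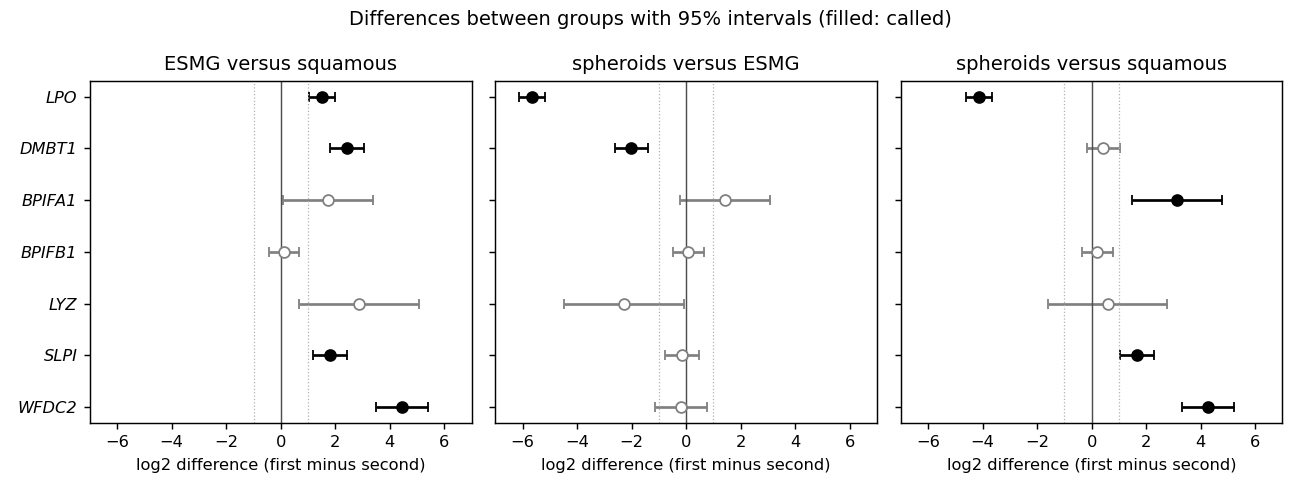
Log2 difference (horizontal axis, the group named first minus the other) of each gene in the 3 comparisons, with 95% limma intervals; filled points were called and dotted lines mark a 2-fold difference. LPO lies far below 0 in both comparisons of spheroids, WFDC2 lies above 4 in both comparisons with squamous tissue, and the intervals of LYZ and BPIFA1 are the widest.

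BPIFA1 and BPIFB1, adjacent genes of the BPI-fold family, differed from each other. BPIFA1 lay at 10.74, 10.39 and 10.75 in spheroids, 10.00, 8.33 and 9.32 in ESMG and 9.81, 6.31 and 6.35 in squamous tissue. It was thus highest in spheroids, whose 3 arrays lay above every tissue array, and the squamous array of pig 37 lay within the ESMG range. The squamous levels of 6.31 and 6.35 were under the array medians (6.84 to 7.04), and no detection value was used. They are not shown to be above background, and differences from squamous tissue are those of the RMA values. Spheroids were 8.79-fold higher than squamous tissue (log2 difference 3.14, 95% interval 1.48 to 4.79, adjusted p = 0.00566), and the difference was 4.29 with the squamous array of pig 37 left out (adjusted p = 1.17e-05). It was the only one of the 7 genes with a higher mean in spheroids than in ESMG by more than 1 unit (1.41, -0.24 to 3.06), and that difference was not called (adjusted p = 0.162). Without the squamous array of pig 37, which lowers the pooled spread of the gene, the same difference was called (adjusted p = 0.00588), as it was in the fit of the spheroid and ESMG arrays alone (adjusted p = 0.0114).

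Between the tissues BPIFA1 was not called (1.73, 0.08 to 3.38, adjusted p = 0.245). The difference of ESMG and squamous tissue was 0.19 in pig 37, 2.03 in pig 39 and 2.97 in pig 40, so the direction was the same in every pig and the size was not. With that array of pig 37, singled out by its BPIFA1 and LYZ levels, left out it was 2.89 and was called (adjusted p = 0.00154). With pig as a fixed replicate block in the 6 tissue arrays it was also called (1.73, adjusted p = 0.0493), and with pig as a random block it was not. The genes most like BPIFA1 were SDC4, a heparan sulfate proteoglycan (r = 0.927), SLC38A1, a glutamine carrier (r = 0.900), and RAB3B, a GTPase of secretory vesicles (r = 0.896). RAB3B lay at 8.96 in the squamous array of pig 37 and at 7.28 and 7.37 in the other squamous arrays.

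BPIFB1 showed no call in any comparison. Its level was 6.55, 6.11 and 6.06 in spheroids, 5.80, 6.80 and 5.88 in ESMG and 6.29, 6.04 and 5.77 in squamous tissue, and all groups overlapped. The log2 difference was 0.12 (-0.44 to 0.69) in ESMG against squamous tissue, 0.08 (-0.48 to 0.64) in spheroids against ESMG and 0.20 (-0.36 to 0.77) in spheroids against squamous tissue. A 2-fold difference of RMA values lay outside each interval. The BPIFB1 levels were under the median of the arrays (6.84 to 7.04), and no detection value was used. RMA compresses low levels, so the intervals do not exclude a 2-fold change in the RNA. The other BPIFB1 probe set lay between 4.55 and 5.62 on all arrays and was not called either. No candidate followed BPIFB1 closely, LRRC3B being the nearest (r = 0.657), before SLITRK6 (0.598) and C5H12orf56 (0.580). BPIFB1 was highest in ESMG of pig 39, as were LRRC3B at 7.62 and the other BPIFB1 probe set at 5.62.

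LYZ, the lysozyme gene, had the widest spread within a group. Its level was 8.04, 8.26 and 8.87 in spheroids, 11.60, 10.98 and 9.43 in ESMG and 10.87, 6.26 and 6.28 in squamous tissue. ESMG lay above spheroids without overlap, and squamous tissue overlapped both through the array of pig 37. The squamous levels of 6.26 and 6.28 were under the array medians (6.84 to 7.04), and no detection value was used. They are not shown to be above background, and differences from squamous tissue are those of the RMA values. None of the 3 comparisons was called: the log2 difference was 2.86 in ESMG against squamous tissue (95% interval 0.67 to 5.06, adjusted p = 0.134), -2.28 in spheroids against ESMG (-4.47 to -0.09, adjusted p = 0.0907) and 0.58 in spheroids against squamous tissue (-1.61 to 2.78, adjusted p = 0.699).

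The LYZ calls changed with the arrays and the fit used. Without the squamous array of pig 37 all 3 were called, at 4.40 in ESMG against squamous tissue (adjusted p = 0.000738), -2.28 in spheroids against ESMG (adjusted p = 0.00196) and 2.12 in spheroids against squamous tissue (adjusted p = 0.00708). Without the squamous array of pig 39 or 40 the last difference was -0.19 or -0.18, so its direction turned. The squamous array of pig 37 was singled out by its LYZ level, so the calls without it are not further support. Within pigs, ESMG exceeded squamous tissue by 0.73, 4.72 and 3.14 in pigs 37, 39 and 40. With pig as a fixed replicate block in the tissue arrays alone, that difference was called (2.86, adjusted p = 0.0220). With pig as a random block the difference of ESMG and squamous tissue was not called. Spheroids against ESMG were called, at -2.90, without the ESMG array of pig 40 (adjusted p = 0.0491), and in the fit of those 2 groups alone (-2.28, adjusted p = 0.00473).

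Because macrophages also make lysozyme, markers of macrophages and other myeloid cells were set beside LYZ. Of 16 measured, 1 was called higher in ESMG than in squamous tissue (median 0.63), 11 were called lower and none higher in spheroids than in ESMG (median -2.34), and 11 were called lower and 2 higher in spheroids than in squamous tissue (median -1.80), where LYZ differed by 0.58. Their mean level was 6.71 to 6.85 in spheroids, 8.32 to 9.18 in ESMG and 7.81 to 8.55 in squamous tissue, and pig 37 held the highest value within ESMG and within squamous tissue. The list was not uniform: MRC1, the mannose receptor of macrophages, averaged 4.92 in spheroids, 8.96 in ESMG and 7.80 in squamous tissue. AIF1 and LCP1, the 2 called higher in spheroids than in squamous tissue, averaged 8.08, 7.26 and 6.81, and 9.52, 9.51 and 8.27, in the same order of groups. None of 7 neutrophil markers was called between ESMG and squamous tissue, and 1 of them was called, higher, between spheroids and ESMG. The part of these cells in the LYZ values was not tested. The genes most like LYZ were EPDR1 (r = 0.882), MS4A7, a membrane protein of macrophages (r = 0.880), and JCHAIN, the joining chain of secreted antibodies (r = 0.870), which lay at 10.00, 7.09 and 7.17 in squamous tissue of pigs 37, 39 and 40.

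**Figure D3:**
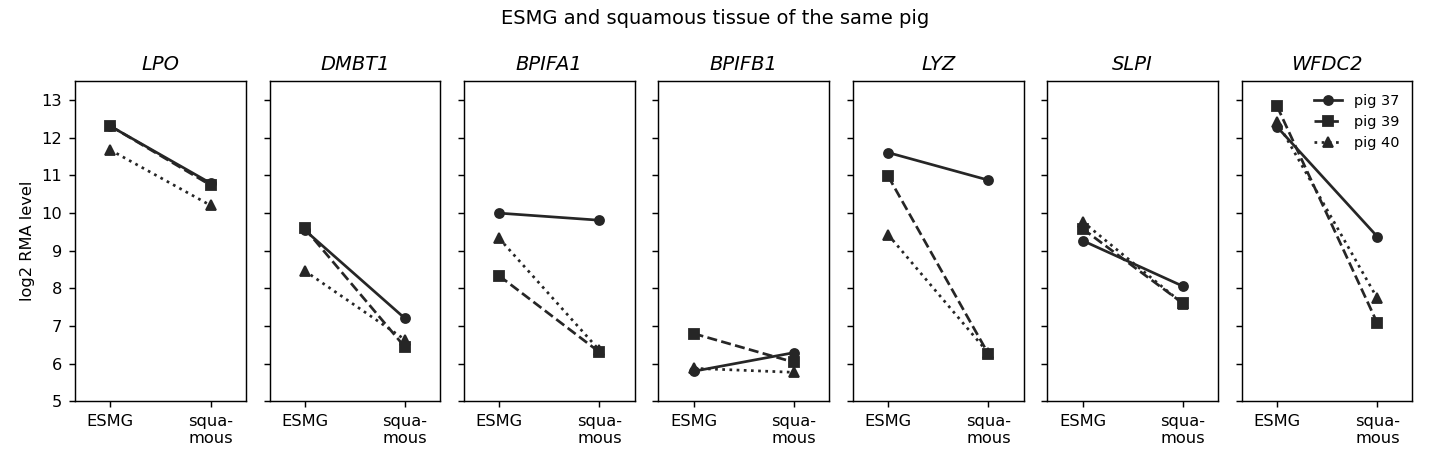
Log2 RMA level (vertical axis) of each gene in ESMG and squamous tissue, with a line for each of pigs 37, 39 and 40. The 3 lines of LPO are nearly parallel (differences 1.47 to 1.57), whereas for BPIFA1 and LYZ the line of pig 37 is nearly flat (0.19 and 0.73) and those of pigs 39 and 40 are steep. The squamous ends of those steep lines lie under the array medians (6.84 to 7.04).

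WFDC2, a whey acidic protein family member also known as HE4, separated the glandular samples from squamous tissue more than any other of the 7 genes. Its level was 12.10, 12.52 and 12.33 in spheroids, 12.29, 12.83 and 12.43 in ESMG and 9.37, 7.08 and 7.73 in squamous tissue. Spheroids and ESMG overlapped, and both lay above every squamous array. It was 21.9-fold higher in ESMG than in squamous tissue (log2 difference 4.45, 95% interval 3.50 to 5.41, adjusted p = 0.000141) and 19.1-fold higher in spheroids than in squamous tissue (4.26, 3.30 to 5.21, adjusted p = 1.48e-05). Between spheroids and ESMG the difference was -0.20 (-1.15 to 0.76, adjusted p = 0.754). Without the squamous array of pig 37 the log2 difference was 5.11 in ESMG against squamous tissue and 4.91 in spheroids against squamous tissue. With array weights, which counted that array most among the squamous arrays (2.99 against 0.39 and 0.65), it was 3.63 and 3.26. Every one of these was called. The difference of ESMG and squamous tissue was 2.91 in pig 37, 5.76 in pig 39 and 4.69 in pig 40.

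SLPI, the inhibitor of neutrophil elastase, had the same pattern with smaller differences. Its level was 9.17, 10.16 and 8.88 in spheroids, 9.27, 9.58 and 9.77 in ESMG and 8.06, 7.60 and 7.59 in squamous tissue. Here too spheroids and ESMG overlapped and squamous tissue lay below both. SLPI was 3.46-fold higher in ESMG than in squamous tissue (log2 difference 1.79, 1.16 to 2.42, adjusted p = 0.00328) and 3.14-fold higher in spheroids than in squamous tissue (1.65, 1.02 to 2.28, adjusted p = 0.000679). Between spheroids and ESMG the difference was -0.14 (-0.77 to 0.49, adjusted p = 0.734), and a 2-fold change lay outside that interval, which was not so for WFDC2.

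Among pairs of the 7 genes, SLPI and WFDC2 correlated most over the 9 arrays (r = 0.929), before DMBT1 and LYZ (0.820) and BPIFA1 and WFDC2 (0.785), while LPO and BPIFA1 had the lowest value (-0.498). The genes most like WFDC2 were AGR2 (r = 0.992), the siderophore-binding protein LCN2 (0.972) and C2H11orf24 (0.970), and those most like SLPI were AMCF-II, a chemokine first described from porcine alveolar macrophages (0.935), WFDC2 itself and NCMAP (0.921). AMCF-II lay at 8.75, 9.43 and 8.47 in spheroids, 7.17, 8.98 and 9.07 in ESMG and 6.51, 5.64 and 5.53 in squamous tissue. In spheroids SLPI and AMCF-II were both highest in pig 2.

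**Figure D4:**
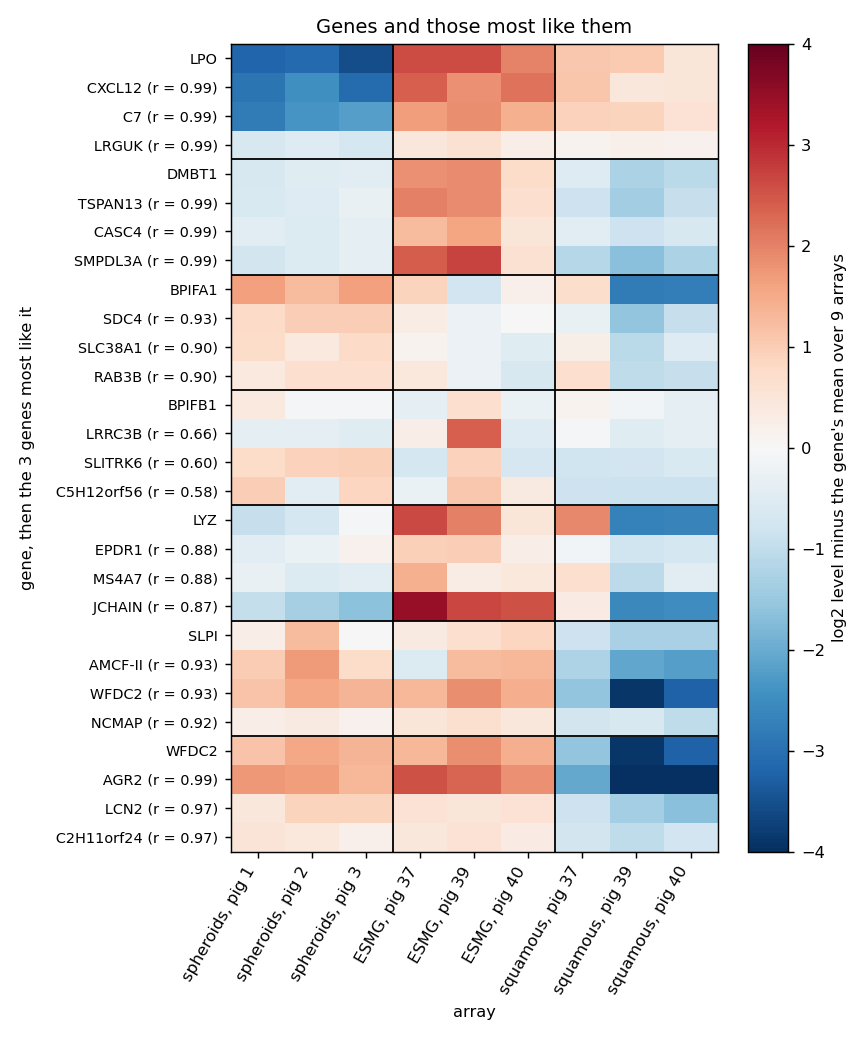
Log2 level minus each gene's mean over the 9 arrays (colour) for the 7 genes, each followed by the 3 genes most like it by Pearson correlation (r in the row names); columns are arrays of spheroids, ESMG and squamous tissue. The rows of LPO and CXCL12 are low in spheroids only, those of WFDC2 and AGR2 are low in squamous tissue only, and the LYZ and BPIFA1 rows are high in the squamous array of pig 37.

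Other antiproteases were called in both directions. Of 25 measured, 2 were called higher and 1 lower in ESMG than in squamous tissue (median -0.08): SERPINA1, the alpha-1 antitrypsin that also inhibits elastase (3.69), PI3, the whey acidic protein family elastase inhibitor elafin (2.27), and A2M, the plasma protease inhibitor alpha-2-macroglobulin (-1.30). SERPINA1 lay at 7.22, 9.08 and 7.03 in spheroids, 10.60, 10.82 and 10.12 in ESMG and 6.98, 6.70 and 6.79 in squamous tissue, so ESMG was apart from both. In spheroids 3 were higher and 6 lower than in ESMG (median 0.09), where 16.9% of all genes were called. Against squamous tissue 3 were higher and 5 lower (median 0.07), where 16.7% of all genes were called. The largest falls were in A2ML1 (-3.98 against ESMG, -4.46 against squamous tissue) and SPINK5 (-3.79 and -4.38), inhibitors made by upper squamous layers, and in A2M (-3.52 and -4.82). PI3 averaged 8.03 ± 0.23 in spheroids against 8.93 ± 0.43 in ESMG (SD, n = 3 each; -0.90, adjusted p = 0.0518) and was not called there.

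Of 6 measured genes of the serine proteases and their receptor, 2 were called higher in ESMG than in squamous tissue (median 0.44), F2RL1, the receptor that trypsin-like proteases activate (1.47), and the membrane protease TMPRSS2 (1.31). In spheroids 3 were higher than in ESMG (median 1.00) and 5 higher than in squamous tissue (median 1.76), and none was lower. The largest rises against ESMG were in the membrane protease matriptase, ST14 (1.90), in TMPRSS4 (1.72) and in PRSS23 (1.14), and those against squamous tissue in F2RL1 (2.23), TMPRSS2 (2.18) and ST14 (2.09). ST14 lay at 10.78, 10.85 and 10.99 in spheroids, 9.02, 8.89 and 8.99 in ESMG and 8.75, 8.89 and 8.69 in squamous tissue.

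Of 19 other innate antimicrobial genes measured, 3 were called higher and none lower in ESMG than in squamous tissue (median -0.08). They were PIGR, the receptor that carries antibodies into secretions (4.78), LCN2 (1.84) and PGLYRP1, a peptidoglycan-binding protein (1.78). In spheroids 4 were lower than in ESMG and none higher (median -0.08), led by S100A7, a zinc-binding antibacterial protein of squamous epithelium (-4.22), PIGR (-3.24) and the secreted glycoprotein AZGP1 (-2.05). Against squamous tissue 2 were higher and 2 lower (median -0.11), led by S100A7 (-4.81), LCN2 (2.03) and PIGR (1.54). LCN2 lay at 8.74, 9.17 and 9.16 in spheroids, 8.87, 8.76 and 8.86 in ESMG and 7.45, 6.92 and 6.61 in squamous tissue, and as for WFDC2 the glandular groups overlapped above squamous tissue. PGLYRP1 averaged 6.82 in spheroids, 8.56 in ESMG and 6.77 in squamous tissue, high in ESMG alone, as DMBT1 was.

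Genes next to the 7 on the chromosome were looked up in the order of the Sus scrofa reference assembly, up to 10 protein-coding genes on either side. BPIFA1 and BPIFB1 lie next to each other, and of their measured relatives BPIFB4, BPIFA2 and BPIFB5 none was called in any comparison, with group means of 5.39 to 5.79. LPO lies between MKS1, a cilium gene, and MPO, the peroxidase of neutrophils, with EPX, that of eosinophils, beyond MKS1. MPO and EPX were not called, with levels between 5.11 and 5.86 on all arrays. MKS1 was called higher in ESMG than in squamous tissue (1.19, adjusted p = 0.00854) and lower in spheroids than in ESMG (-1.87, adjusted p = 4.70e-05), in the directions of LPO, and whether its probe set shares transcribed sequence with LPO was not tested. Of the other measured neighbours of LPO, SEPT4, a septin, was called lower in spheroids than in ESMG (-4.51) and than in squamous tissue (-5.16) but not called between the tissues (-0.65). DYNLL2, a dynein light chain, was called lower in the same 2 comparisons (-1.37 and -1.76), and SUPT4H1, a transcription elongation factor, was called higher in ESMG than in squamous tissue (1.01). PI3 lies near SLPI, and the measured relatives WFDC8, WFDC9, WFDC13 and WFDC3 near WFDC2 were not called in any comparison. Group means of these WFDC relatives were 4.61 to 5.87, under the array medians (6.84 to 7.04). Other genes near SLPI were called in spheroids against ESMG and squamous tissue: LOC100512873 (1.05 and 1.02), PIGT (1.01 and 1.28) and LOC100739507 (-2.09 and -2.86). SDC4 was called against squamous tissue only (1.85), and SDC4 and PIGT also lie near WFDC2. Called neighbours of the other genes, such as FGFR2 near DMBT1 and RAB3IP near LYZ, are not listed in full. These neighbouring genes were picked out by position after the values of the 7 were known.

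**Figure D5:**
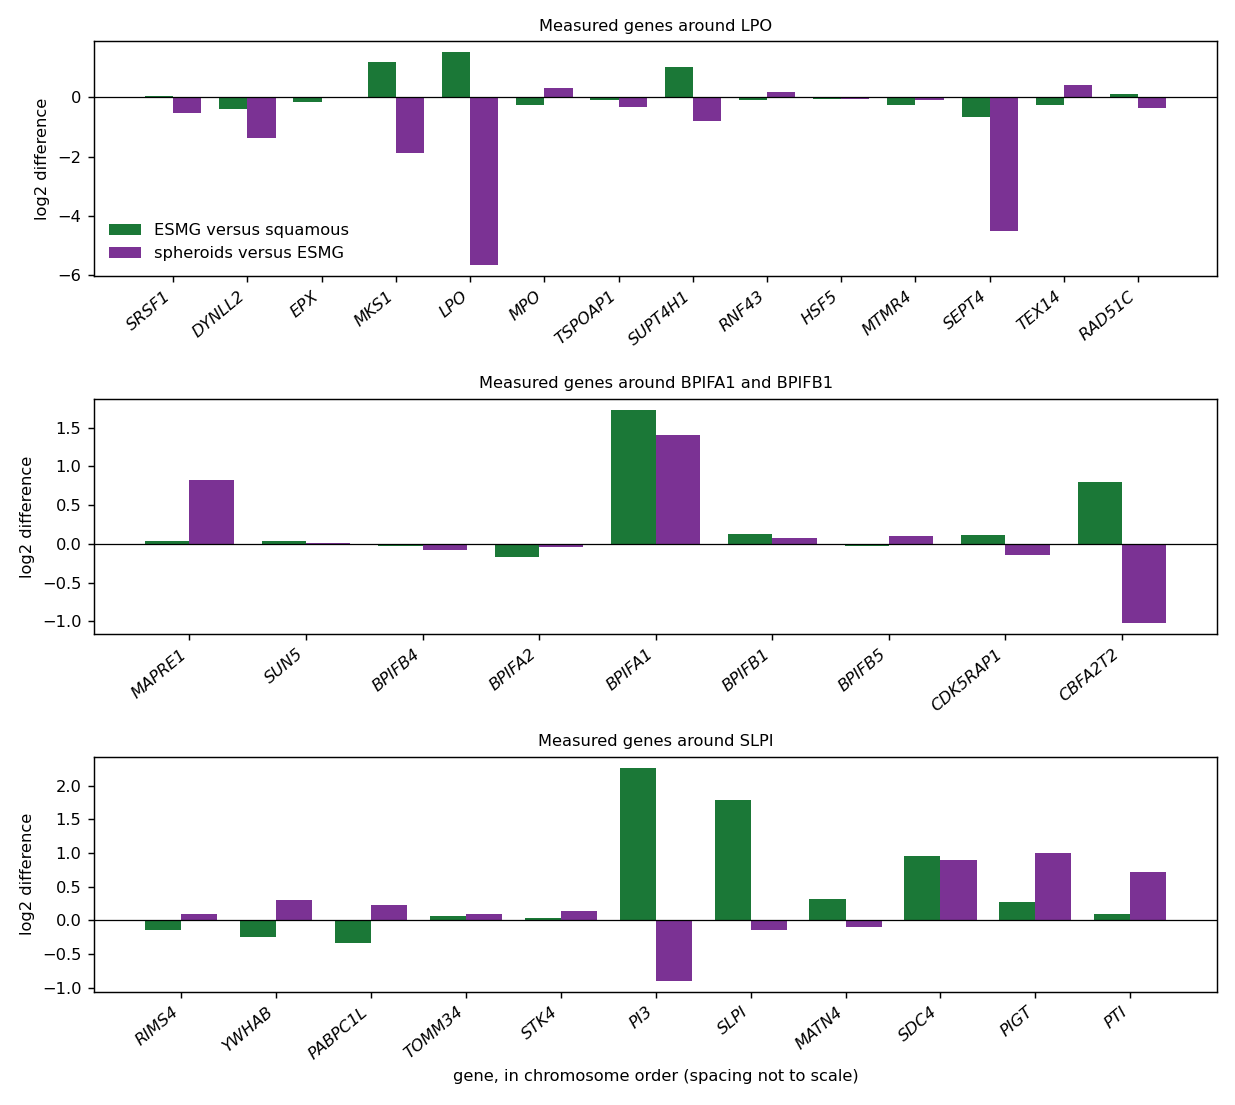
Log2 difference (vertical axis) in ESMG versus squamous tissue and in spheroids versus ESMG for the measured genes, in chromosome order, around LPO, around BPIFA1 and BPIFB1, and around SLPI; genes with a locus identifier for a name are left out and each panel has its own scale. MKS1 lies in the directions of LPO, SEPT4 is low in spheroids versus ESMG (-4.51), the BPI-fold relatives of BPIFA1 lie near 0, and PI3 and SLPI are the highest in ESMG versus squamous tissue in their panel.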

How the data were processed

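RNA of 9 samples was measured on 9 arrays, 3 per group; groups and pig numbers came from the sample titles. The authors deposited log2 values, made per the labels by RMA with the full gene-level setting of Expression Console. The submitters' processing notes also name Transcriptome Analysis Console 3.0, with no role. RMA evens out array-wide differences and compresses low levels. The sources used here give neither its version nor a build. All 9 value columns matched a sample, 0 were left unmatched, and 0 pairs of arrays held identical values.

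Of 27558 probe sets, 13157 had 1 symbol in the platform annotation, 523 several and 13878 none; symbols were updated by gene number through RefSeq (12841 matched). The probe set with the highest mean stood for a gene, which gave 12217 genes. A group-means model over all 9 arrays (6 residual degrees of freedom) was fitted by limma 3.58.1 (lmFit, then eBayes) under R 4.3.3, with statmod 1.5.0, Python 3.11.15, pandas 2.3.3, numpy 2.4.6 and matplotlib 3.10.9, and was tested on simulated data. Calls needed a two-sided adjusted p under 0.05 and 2-fold. The median standard error of a log2 difference was 0.17.

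ESMG and squamous samples are paired because the labels give the same pigs. The correlation across genes of their deviations from the group means was 0.422, -0.147 and -0.168 for pigs 37, 39 and 40, and results with pig as a block are given where the call changes. The consensus correlation within pigs, used for the random block, was -0.149.

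The 7 genes, the 14 lists (186 of 309 symbols measured) and the tests were chosen with earlier results of these data known. Named genes were the 7; for each, the 3 most correlated genes over the 9 arrays among those whose group means differ by at least 1; and the 3 largest called changes per list and comparison. Alternatives were quantile, cyclic loess and median scaling, a filter on the dimmest 1 in 3 genes, the mean of a gene's probe sets, all probe sets, a variance trend, array weights, the 2 groups compared alone, pig as a fixed or random block, and leaving out each array. No sequence was used.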

Additional observations from a re-analysis of the deposited data

How the results depend on the processing

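For the 21 differences of the 7 genes, 424 values under other settings were computed; 398 kept direction and side of the threshold, 0 lost a call, 16 gained one and 10 changed sign, and each that changed sign had not been called. With single arrays left out, ESMG versus squamous tissue ranged from 1.14 to 2.89 for BPIFA1, 2.09 to 4.40 for LYZ and -0.20 to 0.30 for BPIFB1, which was -0.0069 without the squamous array of pig 40. Spheroids versus ESMG ranged from 0.97 to 1.80 for BPIFA1, -2.90 to -1.81 for LYZ, -0.10 to 0.40 for BPIFB1 (-0.075 without spheroids of pig 1, -0.062 without ESMG of pig 40) and -0.52 to 0.12 for SLPI. Spheroids versus squamous tissue ranged from -0.19 to 2.12 for LYZ (-0.18 without squamous tissue of pig 40) and was -1.58 with array weights, which gave spheroids versus ESMG a call for LYZ (-2.94). Array weights also gave the lowest BPIFA1 and LYZ values in ESMG versus squamous tissue (0.35 and 1.36) and the lowest of BPIFA1 in spheroids versus squamous tissue (1.81, still called). The weight was 2.99 for the squamous array of pig 37, against 0.39 and 0.65 for those of pigs 39 and 40. Spheroids of pig 1 had a weight of 8.24, against 0.63 and 0.58 for pigs 2 and 3. The weighted group means thus lay closest to these arrays, of which that of pig 37 stood apart for LYZ and BPIFA1. BPIFB1 fell under the filter on dim genes and has no value there. With pig as a fixed replicate block, BPIFA1 (1.73) and LYZ (2.86) were called in ESMG versus squamous tissue, and no other call of the 7 genes changed under a block. The fit of spheroids and ESMG alone called BPIFA1 (1.41) and LYZ (-2.28), so 1 of the 7 genes was called higher there, against 0; the same count without single arrays was 0 to 1.

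A setting chosen after seeing the data left out the squamous array of pig 37 and the ESMG array of pig 40 together. ESMG versus squamous tissue then gave 2.83 for BPIFA1 and 5.02 for LYZ, spheroids versus ESMG 1.46 for BPIFA1, -2.90 for LYZ and -0.062 for BPIFB1, and spheroids versus squamous tissue 2.12 for LYZ, with all but BPIFB1 called. Called genes in ESMG versus squamous tissue numbered 374, 602 in that setting, and 276 to 569 without single arrays. Over all probe sets 604, 4153 and 4129 were called in ESMG versus squamous tissue, spheroids versus ESMG and spheroids versus squamous tissue, against 374, 2065 and 2035, since more features were tested. No detection value was used, so low levels such as those of BPIFB1 are not read as absence. The cause of the other changes was not tested.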

Other observations

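Transcription factors of secretory cells were counted beside the 7 genes. Of 21 measured, 8 were called higher and none lower in ESMG than in squamous tissue, with a median of 0.59 beside -0.06 over all genes. The largest were ETV1 (2.79), CREB3L1, a membrane-bound factor of secretory cells (2.27), and FOXA1, a factor of glandular epithelium (2.13). In spheroids 1 was higher and 5 lower than in ESMG (median -0.22), led by ELF5 (-2.51), CREB3L1 (-1.73) and SPDEF, a factor of mucous and goblet cells (-1.58), and 6 were higher and 2 lower than in squamous tissue (median 0.29), led by ELF5 (-2.96), ETV1 (2.57) and FOXA1 (2.44). FOXA1 averaged 9.84 in spheroids, 9.53 in ESMG and 7.40 in squamous tissue, and CREB3L1 9.10, 10.83 and 8.56 in the same order.

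Of 23 measured genes of mucosal inflammatory induction, 3 were called higher and none lower in ESMG than in squamous tissue (median 0.36): the neutrophil-attracting chemokines CXCL8 (3.33) and CXCL2 (2.78), and the bacterial lipoprotein receptor TLR2 (1.07). In spheroids 5 were higher and 3 lower than in ESMG (median -0.03), led by CXCL8 (2.55), CXCL2 (1.98) and the cytokine IL1A (1.83), and 7 were higher and 1 lower than in squamous tissue (median 0.22), led by CXCL8 (5.89), CXCL2 (4.75) and CCL20, a chemokine of mucosal epithelium (2.66). With SDs over 3 arrays, CXCL8 averaged 12.50 ± 0.53 in spheroids, 9.94 ± 0.85 in ESMG and 6.61 ± 1.05 in squamous tissue, and the arrays of the 3 groups did not overlap.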
